A study of Mus musculus with 6 samples.

Results

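The oxidative phosphorylation (OXPHOS) genes, which encode the respiratory chain and the ATP synthase of mitochondria, were examined in tumor-associated macrophages (TAMs) from WT and C5aR-/- mice. Members were taken by name and level, from protein-coding mouse genes whose symbol begins with Nduf, Sdh, Uqcr, Cox4 to Cox8, Cyc1, Atp5, mt-Nd, mt-Co, mt-Cytb or mt-Atp and whose mean over the 6 libraries was at least 1 TPM (an abundance corrected for transcript length and library total). This gave 106 of the 56980 genes in the table, 93 of them encoded in the nucleus and 13 in the mitochondrial genome (symbols with mt-). The choice used the mean over both groups and not the difference between them. The members just inside the limit were Cox6b2 (mean TPM 2.71), Sdhaf3 (2.87) and Ndufa4l2 (4.45), and the gene just outside was Cox6a2 (0.277), the muscle form of a cytochrome c oxidase subunit. A further 5 protein-coding IDs were left out, among them Cox4i2 (0.0917), Cox7b2 (0.0917) and the heart and muscle subunit Cox8b, listed at 0 in every library. The name rule also matched 12 pseudogenes and Ndufb1-ps (mean TPM 54.1), which the annotation does not class as protein coding.

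TAMs came from female C57BL/6 WT mice and from mice on the same background lacking C5aR, the receptor for complement fragment C5a, in all cells, and both were 6 to 8 weeks old when obtained. Mice of both groups carried tumors of ID8, a mouse ovarian cancer cell line, placed in the peritoneum 2 months before the tumors were taken, and the sort took live CD45+CD11b+Ly6G-F4/80+ events as TAMs. Poly(A) RNA gave 3 libraries of WT TAMs and 3 of C5aR-/- TAMs, sequenced to ask how loss of the receptor changes the macrophage transcriptome. The labels do not say that each library is a separate mouse, so p-values measure the spread between these libraries. A figure legend of the study counts more mice per group than there are libraries here, and how mice map to libraries is not given in the sources used here. Because the receptor is missing from every cell of the host, a difference between groups cannot be assigned to its loss in macrophages.

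Complexes I (NADH dehydrogenase), III (cytochrome bc1) and IV (cytochrome c oxidase) pump protons across the inner membrane as electrons pass to oxygen, complex II (succinate dehydrogenase) feeds electrons in from the citric acid cycle without pumping, and complex V uses the gradient to make ATP. Subunits of complexes I, III, IV and V come from both genomes, and those of complex II from the nucleus alone. In macrophages, inflammatory stimulation is known to shift ATP production toward glycolysis, whereas alternative activation by IL-4 is known to rely on OXPHOS.

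The C5aR gene itself, C5ar1, was at 86.5, 37.3 and 16.2 TPM in WT libraries and at 0.38, 0.11 and 0.05 TPM in C5aR-/- libraries. The groups did not overlap, and the log2 difference (C5aR-/- minus WT) was -5.04 with a standard error (SE) of 0.56 and an adjusted p of 0.0666 from limma. TPM keeps no record of depth, so no counting error can be given. Between 14393 and 15015 genes reached 1 TPM in a library. Macrophage identity genes (12 of 12 measured, among them Adgre1, Csf1r and Lyz2) were present in every library, but their summed TPM ran from 2683 to 9392 in WT TAMs and from 2671 to 9320 in C5aR-/- TAMs. Epithelial markers, with 7 of 10 tested, summed to 1882 to 2080 in WT and 1807 to 2315 in C5aR-/- TAMs, although the gate took CD45+ cells. Of the 7 tested, 3 were above 0 and 4 below, with a median log2 difference of -0.09. Within that list Cldn3 (log2 difference 1.41, adjusted p = 0.0666 from limma) and Krt8 (0.62, adjusted p = 0.140) were higher in C5aR-/- TAMs without overlap. In such bulk samples, fewer cells of a type and less RNA per cell cannot be told apart. Over the 14776 genes tested, 0 (0.0%) were called by limma (a change of at least 2-fold with adjusted p under 0.05), whereas 2133 (14.4%) had an unadjusted p under 0.05 and 3151 (21.3%) had groups that did not overlap.

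Among the 106 OXPHOS genes, 0 passed the adjusted threshold, and 13 (12.3%) had an unadjusted p under 0.05 against 14.4% of all genes tested. The groups did not overlap for 18 of them (17.0%), against 21.3%, with 3 higher (8.84% of all genes) and 15 lower (12.5%). Differences were small for most members. The log2 difference was under 0.5 in size for 97 and at least 1 for 2, Cox7a1 and Ndufa4l2. The median log2 difference was -0.13, beside -0.05 over all genes tested, and 83 of 106 members were below 0 (78.3%) beside 55.5% of all genes. Of the 13 with an unadjusted p under 0.05, 12 were lower and 1 was higher in C5aR-/- TAMs, beside 8.37% of all genes lower and 6.06% higher. Without WT TAM 2 or without WT TAM 3, 5 were lower at that p. In these fits 1111 and 1629 of all genes had such a p in either direction, beside 2133 with all libraries. The 93 nuclear members had a median of -0.12 with 72 below 0, and the 13 mitochondrial members a median of -0.15 with 11 below 0. All members passed the filter of at least 1 TPM in 3 libraries.

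**Figure D1:**
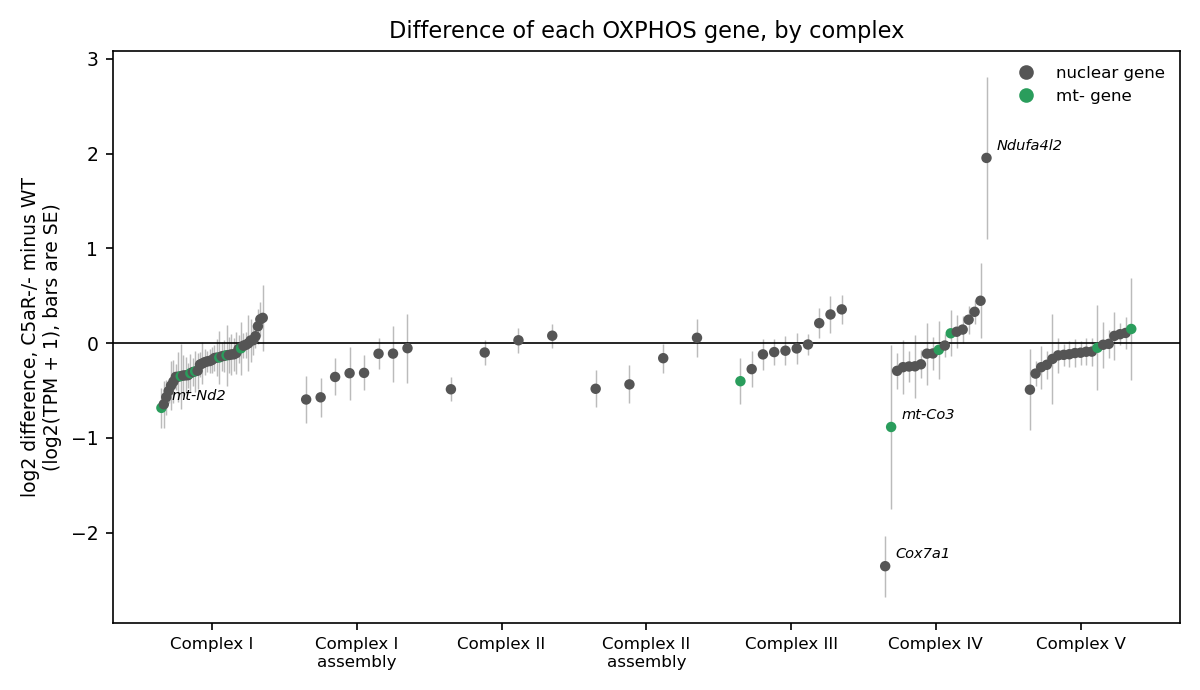
Log2 difference (C5aR-/- minus WT, log2(TPM + 1) scale) of each of the 106 OXPHOS genes, grouped by complex, with bars for the SE and color for the genome. Most points lie within 0.5 of 0, and Cox7a1 at -2.36 and Ndufa4l2 at 1.95 stand outside.

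Cox7a1 showed the lowest difference of all members. It encodes the heart and muscle form of subunit VIIa of complex IV, a small nuclear subunit with a widely expressed counterpart, Cox7a2. The gene lies on chromosome 7 from 30184144 to 30186078 on the plus strand (GRCm38). Cox7a1 had 112, 128 and 98.2 TPM in WT and 21.3, 33.6 and 13.0 in C5aR-/- TAMs. The groups did not overlap, and all 3 C5aR-/- libraries lay far below the lowest WT library. The means were 113 ± 14.8 and 22.6 ± 10.4 (SD, n = 3 each), a 4.98-fold ratio. The log2 difference was -2.36 (SE 0.32, adjusted p = 0.0666 from limma), short of the 0.05 threshold. Among all 14776 genes its difference ranked 59 from the lowest and its p ranked 41 from the smallest. Over the alternatives its adjusted p ran from 0.0367 (without C5aR-/- TAM 1, the one alternative past the threshold) to 0.346 (without WT TAM 2), and the difference stayed between -2.68 and -2.02.

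Cox7a2 had 179, 201 and 202 TPM in WT and 190, 210 and 244 in C5aR-/- TAMs, with overlapping groups (log2 difference 0.14, SE 0.14). Cox7a1 therefore made up 38.5%, 38.9% and 32.7% of the summed TPM of the pair in WT TAMs and 10.1%, 13.8% and 5.04% in C5aR-/- TAMs. The sum itself was 290, 328 and 300 in WT and 211, 244 and 257 in C5aR-/- TAMs, so the groups differed in the total as well as in the share. Cox7a2l, a paralog of these subunits, overlapped between groups, with 216, 274 and 228 TPM in WT and 229, 198 and 187 in C5aR-/- TAMs.

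Markers of some other cell types also differed between groups. Of all genes tested, 8.37% were lower and 6.06% higher at an unadjusted p under 0.05. Of 8 mesothelial markers, 6 were lower and 1 (Msln) higher at an unadjusted p under 0.05, with sums of 1167 to 1602 TPM in WT and 794 to 1164 in C5aR-/- TAMs. Of 7 tested neutrophil markers, 5 were lower at that p, with sums of 634 to 2356 and 31.3 to 400. Of 7 tested mast cell markers, 5 were lower and 1 (Kit) higher, with sums of 86.9 to 141 and 61.6 to 90.5, and the mast cell protease Mcpt4 was listed at 0 in 2 C5aR-/- libraries. Fibroblast markers overlapped, at 405 to 606 and 439 to 557. Epithelial Cldn3 and Krt8 were higher, as given above, but 4 of the 7 tested epithelial markers were below 0. The gate would leave out mesothelial cells and fibroblasts, which lack CD45, and neutrophils, which carry Ly6G. The part of these cells in the Cox7a1 difference was not tested.

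The promoters of Cox7a1, Cox7a2 and Cox6a1, the most abundant of the complex IV genes with higher values in all 3 C5aR-/- libraries, are shown because these genes of 1 complex differed in opposite directions or not at all. Each is the 250 bases before the RefSeq transcription start (GRCm38.p6), read 5′ to 3′ on the gene's strand, and capitals mark the NRF1 core GCATGCG and the ETS motif CCGGAAG on either strand. NRF1 and the ETS factor GABP are known activators of respiratory genes. Cox7a1 lies at chr7:30183921-30184170 (plus strand), Cox7a2 at chr9:79759854-79760103 (minus) and Cox6a1 at chr5:115348959-115349208 (minus).
Cox7a1: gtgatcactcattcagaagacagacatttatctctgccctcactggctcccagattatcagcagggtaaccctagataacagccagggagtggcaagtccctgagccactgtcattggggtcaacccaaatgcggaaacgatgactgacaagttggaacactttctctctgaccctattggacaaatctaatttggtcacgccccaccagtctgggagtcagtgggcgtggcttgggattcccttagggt
Cox7a2: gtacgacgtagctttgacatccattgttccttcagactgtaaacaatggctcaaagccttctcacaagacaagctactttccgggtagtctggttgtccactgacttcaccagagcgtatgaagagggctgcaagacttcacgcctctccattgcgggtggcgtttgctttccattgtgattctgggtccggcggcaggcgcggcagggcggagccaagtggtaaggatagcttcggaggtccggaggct
Cox6a1: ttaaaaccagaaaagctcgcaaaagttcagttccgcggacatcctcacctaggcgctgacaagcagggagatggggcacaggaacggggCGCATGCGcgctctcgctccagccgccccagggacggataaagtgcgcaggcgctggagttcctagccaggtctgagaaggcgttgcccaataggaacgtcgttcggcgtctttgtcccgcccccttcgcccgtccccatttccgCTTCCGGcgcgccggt
In these windows the Cox6a1 promoter holds overlapping matches to the NRF1 core on both strands and 1 ETS match, and those of Cox7a1 and Cox7a2 hold no match to any motif searched. The GC content was 51.2% for Cox7a1, 54.8% for Cox7a2 and 62.8% for Cox6a1.

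**Figure D2:**
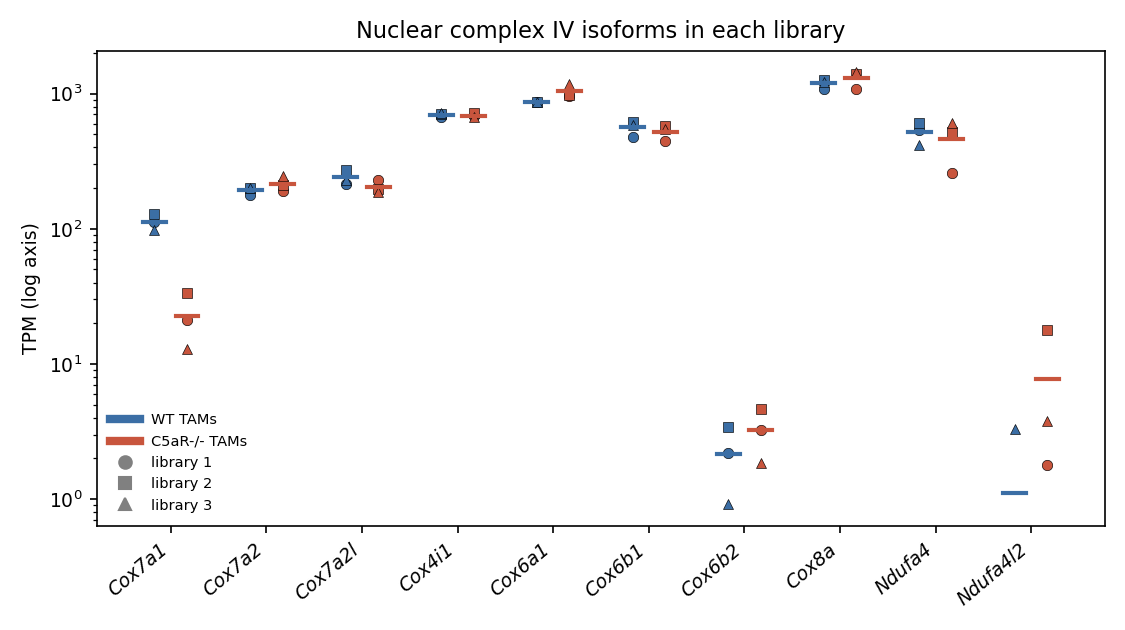
TPM (log axis) of 10 complex IV subunit genes with alternative forms in each of the 6 libraries (symbols) and the group means (lines), with values listed at 0 not drawn. Cox7a1 lies at 98.2 or above in WT TAMs and at 33.6 or below in C5aR-/- TAMs, whereas Cox7a2 overlaps between groups.

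Apart from the paralog Ndufa4l2, the other complex IV genes differed far less. Cox4i1, a regulatory subunit, had 676, 702 and 722 TPM in WT and 681, 713 and 668 in C5aR-/- TAMs (log2 difference -0.03), and Cox8a, the most abundant nuclear member of the complex, had 1088, 1254 and 1223 against 1077, 1383 and 1435. Cox5a, a subunit on the matrix side, was the member with an unadjusted p under 0.05 in the upward direction. It had 168, 150 and 161 TPM in WT and 189, 191 and 223 in C5aR-/- TAMs, a log2 difference of 0.33 (SE 0.12, adjusted p = 0.310 from limma) with no overlap. Cox6a1 had 868, 870 and 871 TPM in WT and 966, 971 and 1173 in C5aR-/- TAMs, likewise without overlap (log2 difference 0.25, adjusted p = 0.485). Cox5b, the partner of Cox5a on the matrix side, had 246, 278 and 278 TPM in WT and 165, 240 and 260 in C5aR-/- TAMs, with overlapping groups. Of the 13 nuclear subunit genes of complex IV, the paralogs Ndufa4l2 and Cox7a2l not counted, 5 were above and 8 below 0, with a median of -0.11.

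Ndufa4l2 encodes a hypoxia-induced relative of the complex IV subunit NDUFA4 and had the highest difference of all members. It was listed at 0 in 2 WT libraries and at 3.31 TPM in WT TAM 3, and had 1.79, 17.8 and 3.78 TPM in C5aR-/- TAMs. The groups overlapped, 1 library held most of the signal, and the log2 difference was 1.95 (SE 0.86, adjusted p = 0.365 from limma). It was 1.17 without C5aR-/- TAM 2 and 3.97 with a pseudocount of 0.1. Its counterpart Ndufa4 was far more abundant, with 536, 606 and 417 TPM in WT and 260, 517 and 603 in C5aR-/- TAMs, so Ndufa4l2 was at most 3.33% of the pair. Cox6b2, the testis form of a complex IV subunit, was also low, at 2.18, 3.41 and 0.92 against 3.25, 4.63 and 1.85 TPM, beside 442 to 621 for Cox6b1.

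Complex I, which takes electrons from NADH, has the most members and held the most with lower values. Below 0 were 83.3% of its nuclear subunit genes, beside 81.2% in complex V and 78.3% of all members. Of the 36 nuclear subunit genes of complex I, 30 were below 0 and 6 above, with a median log2 difference of -0.17. An unadjusted p under 0.05 was found for 5 (all lower), which is 13.9% beside 14.4% of all genes. The 7 nuclear core subunits, which carry the flavin and iron-sulfur clusters, had a median of -0.16 with 0 below that p, and the 29 accessory subunits a median of -0.18. The clearest was Ndufa7, an accessory subunit of the matrix arm, with 412, 484 and 483 TPM in WT and 340, 323 and 305 in C5aR-/- TAMs. Its groups did not overlap and the log2 difference was -0.51 (SE 0.13, adjusted p = 0.178 from limma).

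Ndufa13, also known as a cell death regulator under the name GRIM-19, had 70.9, 86.1 and 87.0 TPM in WT and 42.5, 62.3 and 60.1 in C5aR-/- TAMs (log2 difference -0.57). The small accessory subunit Ndufa3 had 92.7, 161 and 167 against 77.8, 98.2 and 84.3 TPM (-0.65), and WT TAM 1 lay within the C5aR-/- range. Ndufb5 and Ndufa11, both of the membrane arm, had log2 differences of -0.36 and -0.34 and no overlap. The core subunit Ndufs1, the largest of the complex, was slightly lower in each C5aR-/- library, with 57.0, 57.9 and 49.0 against 48.2, 48.5 and 46.3 TPM. Ndufa6, the most abundant nuclear subunit, overlapped, with 381, 487 and 387 TPM in WT and 405, 447 and 575 in C5aR-/- TAMs.

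The 8 complex I assembly factors, which build the complex and are not part of it, were all below 0, with a median log2 difference of -0.32. Ndufaf3 had 14.1, 12.8 and 16.3 TPM in WT and 7.99, 13.0 and 7.31 in C5aR-/- TAMs (-0.60), and Ndufaf4 had 11.0, 10.6 and 14.2 against 9.37, 7.23 and 6.54 (-0.57). These 2 had an unadjusted p under 0.05, and C5aR-/- TAM 2 overlapped WT for the former. Over all 12 assembly factors of the rule, complex II included, 11 were below 0, beside 55.5% of all genes, and 3 had a p under 0.05, all lower, beside 8.37% of all genes. Among 42 tested assembly factors that the name rule does not take, 27 (64.3%) were below 0 and 1 had a p under 0.05 (lower), with a median of -0.10.

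Of the 4 complex II subunits, Sdhc, a membrane anchor that binds heme and ubiquinone, had 90.2, 84.4 and 84.2 TPM in WT and 68.2, 61.2 and 55.0 in C5aR-/- TAMs. The groups did not overlap (log2 difference -0.49, SE 0.13, adjusted p = 0.186 from limma). The catalytic flavoprotein Sdha overlapped between groups, with 128, 133 and 105 against 110, 110 and 119 TPM. The 4 subunits had a median of -0.03 and were evenly split in direction. The assembly factor Sdhaf3 was uniform within each group, at 3.29, 3.82 and 3.43 TPM in WT and 2.23, 2.21 and 2.24 in C5aR-/- TAMs (-0.48).

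Complex III showed small differences in both directions. Of its 9 nuclear genes, 3 were above and 6 below 0, with a median of -0.06 and 0 with an unadjusted p under 0.05. Uqcrfs1, the Rieske iron-sulfur protein, had 88.0, 89.6 and 85.3 TPM in WT and 95.9, 111 and 134 in C5aR-/- TAMs, without overlap and with a log2 difference of 0.36 (SE 0.15, adjusted p = 0.346 from limma). Cyc1, which holds heme c1, had 106, 106 and 94.2 against 113, 105 and 168 TPM. Uqcrc1, a core protein without a redox group, varied the least of all nuclear members, with its highest library at 1.07 times its lowest.

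Complex V makes ATP. Of its 16 nuclear subunit genes, 13 were below 0 and 3 above, with a median of -0.10 and 1 (lower) with an unadjusted p under 0.05. That gene, Atp5h, encodes subunit d of the peripheral stalk and had 529, 615 and 639 TPM in WT and 460, 469 and 493 in C5aR-/- TAMs (log2 difference -0.32, no overlap). Atp5g1, a c-ring gene, also did not overlap, with 373, 394 and 384 against 362, 274 and 353 TPM. Atp5b, the catalytic beta subunit and the most abundant of the complex, had 1065, 1078 and 964 TPM in WT and 1326, 1072 and 974 in C5aR-/- TAMs.

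The 13 mitochondrial members encode core subunits of complexes I, III, IV and V and are transcribed within the organelle from both strands of 1 circular genome. Of these, 11 were below 0 and 2 above, with a median log2 difference of -0.15, and 1 had an unadjusted p under 0.05 (7.69% beside 14.4%). That gene was mt-Nd2, a proton-pumping core subunit of complex I, with 3074, 2497 and 2020 TPM in WT and 1617, 1404 and 1646 in C5aR-/- TAMs. It was the 1 mitochondrial member without overlap (-0.68, SE 0.21, adjusted p = 0.232 from limma).

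All 7 mitochondrial genes of complex I had a difference below 0, with a median of -0.30, but apart from mt-Nd2 their groups overlapped. mt-Nd1 had 4303, 3519 and 3008 TPM in WT and 3225, 2802 and 2710 in C5aR-/- TAMs, and mt-Nd4 had 3962, 3464 and 3140 against 2529, 2785 and 3157. mt-Cytb, the heme subunit of complex III, had 7235, 6659 and 5317 TPM in WT and 4073, 4981 and 5471 in C5aR-/- TAMs (-0.40). In each of these 3 genes WT TAM 1 was the highest library, as it was for 10 of the 13 mitochondrial members, and without that library the median over the 13 was 0.04.

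Of the catalytic complex IV subunits, mt-Co1 had 15891, 15045 and 14763 TPM in WT and 11529, 15331 and 17233 in C5aR-/- TAMs, and mt-Co2 had 1385, 879 and 820 against 1257, 949 and 1037. mt-Co3 stood out for 1 library, with 977, 754 and 786 TPM in WT TAMs and 96.1, 962 and 985 in C5aR-/- TAMs. Its log2 difference of -0.89 (SE 0.87) became 0.22 without C5aR-/- TAM 1.

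mt-Atp8, a small complex V subunit, had 48829, 41308 and 36449 TPM in WT and 27381, 48318 and 50188 in C5aR-/- TAMs, and made up between 49.2% and 59.0% of the mitochondrial sum. mt-Atp6, the proton channel of complex V, lies on the same RNA and overlaps it by 43 bases, and mt-Atp8 had 62.0 to 187 times its TPM in the same library. Reads of overlapping genes on a shared RNA can be split between them by the counting, and mt-Atp8, at 204 bases, is the shortest mitochondrial member, so the level of either is uncertain. The same holds for mt-Nd4l and mt-Nd4, which overlap by 7 bases. mt-Nd6, on the opposite strand to mt-Nd5 with 14 shared bases, had 1973, 1275 and 937 against 913, 1339 and 1477 TPM. The libraries were stranded, but whether the counting used the strand is not given in the sources used here.

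**Figure D3:**
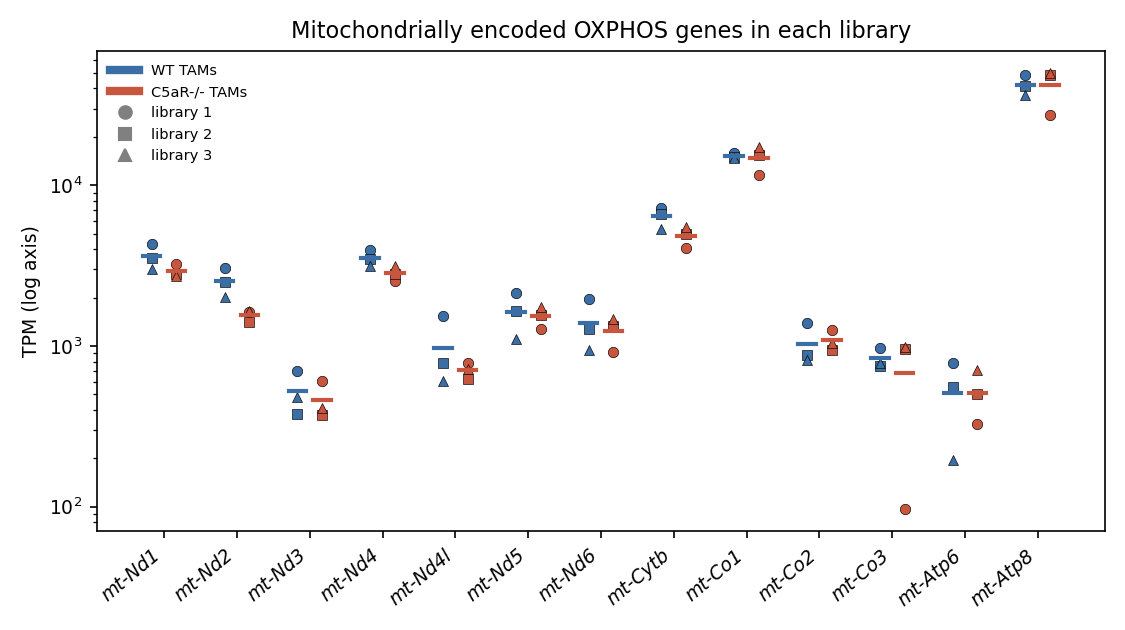
TPM (log axis) of the 13 mitochondrial OXPHOS genes in the 6 libraries (symbols), with lines at the group means. The groups overlap for each gene but mt-Nd2, and C5aR-/- TAM 1 is far below the others for mt-Co3, at 96.1 TPM.

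Summed over members, nuclear OXPHOS genes took 19498, 22162 and 21456 TPM in WT TAMs and 18406, 20015 and 21642 in C5aR-/- TAMs, that is 1.84% to 2.22% of a library. The means of 21039 ± 1380 and 20021 ± 1618 (SD, n = 3 each) differed by less than the spread between libraries. The mitochondrial members took 92802, 78767 and 69623 TPM in WT and 55614, 81930 and 87491 in C5aR-/- TAMs, or 5.56% to 9.28%. These sums overlapped, and they varied more between libraries of 1 group than between groups.

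The ratio of mitochondrial to nuclear TPM was 4.76, 3.55 and 3.24 in WT TAMs and 3.02, 4.09 and 4.04 in C5aR-/- TAMs, with means of 3.85 ± 0.80 and 3.72 ± 0.60 (SD, n = 3 each). Leaving out mt-Atp8 gave 2.26, 1.69 and 1.55 against 1.53, 1.68 and 1.72. The highest ratio was in WT TAM 1 and the lowest in C5aR-/- TAM 1 in both versions, and the groups overlapped in both. The libraries were made from poly(A) RNA, so the ratio compares these libraries and is not a ratio of molecules in the cell.

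**Figure D4:**
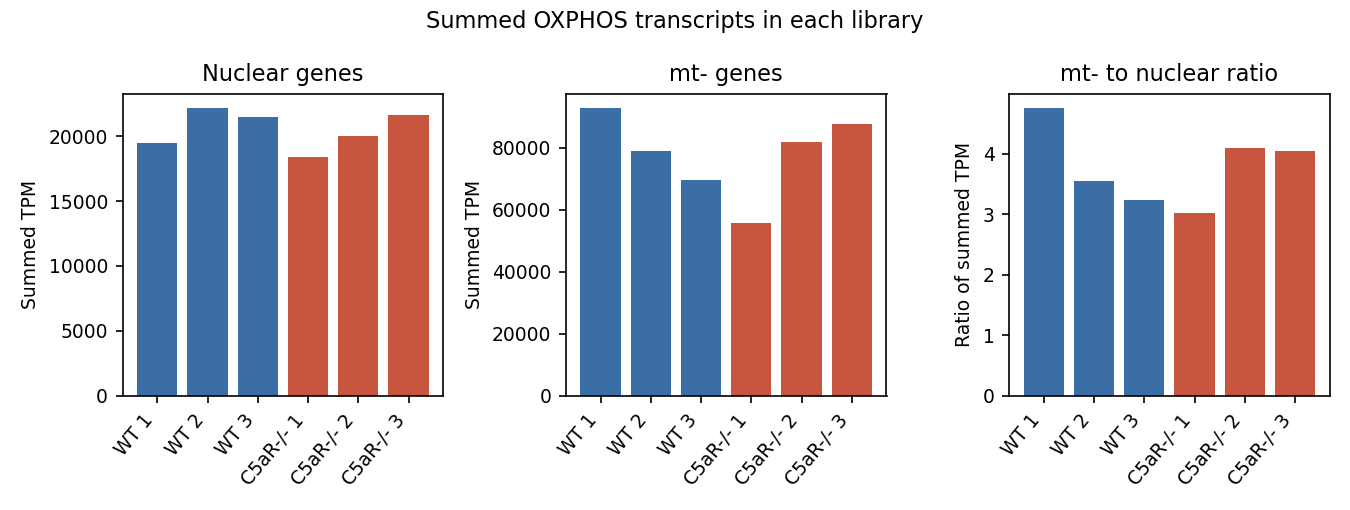
Summed TPM of the 93 nuclear and of the 13 mitochondrial OXPHOS genes, and their ratio, in each of the 6 libraries, as bars from 0. Both sums and the ratio overlap between WT and C5aR-/- TAMs.

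For 75 of the 93 nuclear members the highest library had under 2 times the TPM of the lowest, and the median of that ratio was 1.51. It reached 2 for 18 nuclear members (19.4%) and for 5 of the 13 mitochondrial members (38.5%), beside 48.8% of all genes tested, which include many of lower TPM. C5aR-/- TAM 1 was the lowest library for 35 of the 93 nuclear members (37.6%, beside 24.6% of all genes tested), against 17 and 19 for the other C5aR-/- libraries and 12, 2 and 8 for WT TAM 1, 2 and 3. It was also the lowest for 6 of the 13 mitochondrial members. That library had the highest sum of erythroid markers, 26558 TPM beside 361 to 7262 in WT TAMs and as little as 333 in C5aR-/- TAMs, where hemoglobin genes lead and 5 of 6 markers were tested. The part of this RNA in its low values was not tested. With each library left out in turn, the median over the nuclear members stayed between -0.18 and -0.08.

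**Figure D5:**
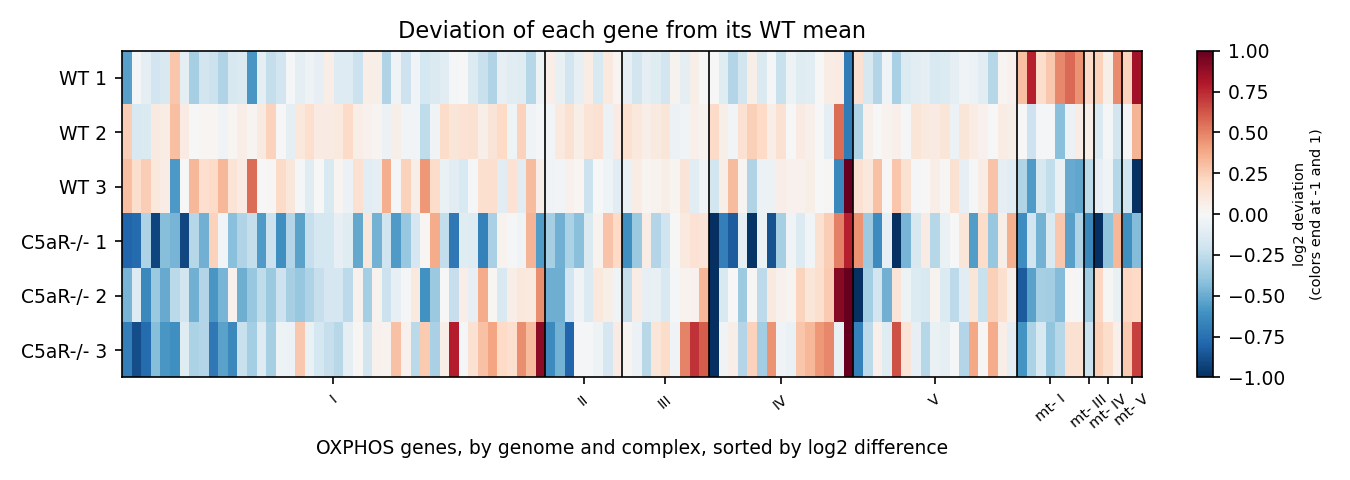
Deviation of each OXPHOS gene (columns, by genome and complex) from its WT mean log2(TPM + 1) in each library (rows), with colors ending at -1 and 1. C5aR-/- TAM 1 has the lowest median deviation for both genomes, -0.22 for nuclear and -0.43 for mitochondrial members, and WT TAM 1 has the highest for mitochondrial members, 0.30.

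Ndufb7, a complex I accessory subunit on chromosome 8, had its lowest value in C5aR-/- TAM 1 and its highest in C5aR-/- TAM 3, with 180, 185 and 196 TPM in WT and 126, 259 and 348 in C5aR-/- TAMs (log2 difference 0.27). This order of the extremes was shared by 12 of the 93 nuclear members (12.9%, beside 8.87% of all genes tested), Cox7c and Atp5k among them. The genes on either side of Ndufb7, Scoc and Tecr, shared it too. Dnajb1, next to Tecr, did not, with its highest value in WT TAM 2 (log2 difference -1.78). Nor did Ddx39 further along, lowest in WT TAM 2, with 47.0, 41.5 and 46.3 against 58.2, 93.6 and 120 TPM.

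Of the nuclear members, 78 of 93 matched a RefSeq promoter, with Ensembl ID, symbol and synonym tried in turn. A gene was counted if any of its windows, the 250 bases before a start, held the motif on either strand. The NRF1 core GCATGCG was found in 10 (12.8%), beside 4.24% of 17492 protein-coding genes, and the ETS motif CCGGAAG in 16 (20.5%) beside 10.2%. Either of these was in 23 (29.5%) beside 13.7%. The full NRF1 palindrome, which contains the core, was in 5 (6.41%) beside 1.21%. The hypoxia response core ACGTG was in 16 of 78 (20.5%) beside 3491 of 17492, and TATAAA in 5 (6.41%) beside 13.7%. The YY1 motif AAGATGGC was in 1 (1.28%) beside 1.77%, and a MEF2 (muscle factor) motif in 0 beside 0.0915%. These are letter matches, not bound sites.

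Other mitochondrial genes are given beside 55.5% of all genes below 0 and 8.37% lower at an unadjusted p under 0.05. Of 18 genes of the citric acid cycle and pyruvate dehydrogenase, 11 (61.1%) were below 0 and 1 had an unadjusted p under 0.05. That gene, Suclg2, a succinyl-CoA ligase subunit, had 51.9, 59.1 and 62.4 TPM in WT and 37.0, 29.5 and 32.2 in C5aR-/- TAMs (log2 difference -0.80, no overlap). A list of 24 genes held cytochrome c, inner membrane carriers, porins, electron transfer flavoproteins and ubiquinone synthesis genes, and 14 (58.3%) were below 0. At that p, 3 were lower (Vdac3, Etfa and Etfdh) and 1 was higher, the carrier Slc25a5 (0.41). The porin Vdac3 had 169, 192 and 159 TPM in WT and 122, 126 and 121 in C5aR-/- TAMs (-0.49). Of 30 genes that express the mitochondrial genome, 18 were below 0, 5 were lower and 0 higher at that p, led by Slirp, which stabilizes mitochondrial mRNA (-1.16), and Tfb1m, which methylates the 12S rRNA (-0.63). Of 78 mitochondrial ribosomal protein genes, 47 (60.3%) were below 0, 3 were lower at that p and the median was -0.05.

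Glycolysis and hypoxia-linked genes had mostly positive differences. Of 17 glycolysis genes, 15 were above 0 and 13 were higher at an unadjusted p under 0.05 (76.5% beside 6.06% of all genes), with a median log2 difference of 0.84 and sums of 5385 to 5896 TPM in WT and 7085 to 12692 in C5aR-/- TAMs. Of 9 tested hypoxia-linked mitochondrial genes, Ndufa4l2 among them, 3 were higher and 1 lower at that p. Bnip3, a mitophagy receptor, had 11.6, 19.5 and 21.6 TPM in WT and 35.2, 65.5 and 56.3 in C5aR-/- TAMs (1.52), and Pdk1, which inhibits pyruvate dehydrogenase, had 8.80, 10.6 and 12.8 against 18.1, 29.0 and 30.2 (1.17). Of 12 regulators of mitochondrial biogenesis, Myc had 125, 118 and 80.5 TPM in WT and 245, 155 and 231 in C5aR-/- TAMs (0.96), and it was the 1 gene with an unadjusted p under 0.05.

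As housekeeping comparators, the 80 tested cytosolic ribosomal protein genes had a median of 0.12, with 63 above 0, and the 38 tested proteasome genes a median of -0.12, with 30 below 0. The OXPHOS median of -0.13 was thus close to that of the proteasome. Of 12 heat shock chaperones, 12 were below 0 (beside 55.5% of all genes). At an unadjusted p under 0.05, 6 were lower, beside 8.37% of all genes. Their sums overlapped, at 6040 to 13364 TPM in WT and 4426 to 6342 in C5aR-/- TAMs. Nuclear-retained RNAs, with 3 of 3 tested below 0, summed to 1179 to 1812 and 931 to 1748. Of the remaining marker lists, T and NK cell markers summed to 16.5 to 71.0 and 14.7 to 46.1, B cell markers to 85.9 to 502 and 33.9 to 458, and dendritic cell markers to 30.0 to 38.1 and 21.8 to 53.0, in WT and C5aR-/- TAMs in that order.

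Some members may share sequence with pseudogenes named after them. Ndufb4 had 29.2, 34.2 and 32.6 TPM in WT and 30.1, 28.3 and 26.1 in C5aR-/- TAMs. Ndufb4c, annotated as a processed pseudogene, was listed at 356, 437 and 422 against 452, 347 and 339. Their sequences were not compared here, so any split of reads between the pair is uncertain, and neither level can be taken as that of 1 gene.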

How the data were processed

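RNA of sorted TAMs was measured in 6 libraries, mapped to their groups by the labels. According to the methods, the authors used fastp for trimming, HISAT2 for alignment and StringTie for transcript assembly, and the submitters' processing notes also name RSEM, DESeq2 and the mm10 build. The methods name FPKM, but the deposited values are TPM per gene, which sum to 1000000 in each library. The authors' group means were not used. TPM keeps no depth, so the spread between libraries is the error given, and a value listed at 0 can be a failed estimate. TPM shares are also relative, so a rise of some genes lowers the rest.

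Symbols, gene classes and coordinates came from GENCODE M21 (GRCm38), which matched 52073 of 56980 IDs, and promoters from RefSeq. The 14776 genes that reached 1 TPM in 3 or more libraries were compared on log2(TPM + 1) with limma 3.58.1 in R 4.3.3 (lmFit, then eBayes with trend), with Benjamini-Hochberg adjustment over all of them. This scale understates the change of low genes. Calls required a change of at least 2-fold with adjusted p under 0.05. Python 3.11.15, pandas 2.3.3, numpy 2.4.6 and scipy 1.17.1 were used for summaries, and the fit was tested on simulated data. The members and the 22 gene lists were chosen with earlier results of these data known. The named genes were C5ar1, the mt- members, the most abundant nuclear subunit of each complex, the 5 members with the highest and the 5 with the lowest difference, the tissue or oxygen-dependent subunit pairs, members at the TPM limit and up to 3 genes per list. The other genes named were chosen after their values were seen. As alternatives, the pseudocount was set to 0.1, the filter was dropped or raised to 5 TPM, mt- genes were left out of the total, values were quantile normalized or scaled by median of ratios, the replicate number entered as a block, eBayes was run without trend, and each library was left out in turn.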

Additional observations from a re-analysis of the deposited data

How the results depend on the processing

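The count of genes called over the whole table was 0 and stayed 0 under the alternatives other than these: 2 with eBayes without trend, and 0 to 356 with 1 library left out, the 356 without C5aR-/- TAM 1. OXPHOS members called were 0 to 1 with 1 library left out, the 1 being Cox7a1 without C5aR-/- TAM 1. Without that library C5ar1 also passed, at -5.16 (limma adjusted p = 0.0221), within a range of -5.63 to -4.45. Members lower at an unadjusted p under 0.05 numbered 12, and 5 to 13 with 1 library left out. Over all genes, those with such a p in either direction numbered 2133, and 1111 to 3231 with 1 library left out. Replicate numbers 1 to 3 are shared by the groups. With the group mean removed, same-numbered libraries correlated at 0.186, -0.011 and 0.272. Libraries numbered 1 and 3 correlated best with their own number, and those numbered 2 did not. Deviations from a mean of 3 libraries constrain each other, so this check cannot decide whether the numbers pair the libraries. With the replicate number as a block, 7 members were lower at an unadjusted p under 0.05. In that fit 2222 of all genes had such a p in either direction, beside 2133 without the block, and 0 were called.

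The median over nuclear members was -0.18 to -0.08 and over mitochondrial members -0.40 to 0.04 with 1 library left out. For the mitochondrial to nuclear ratio the log2 difference of -0.05 ran from -0.16 to 0.12 with 1 library left out, being above 0 when either WT TAM 1 or C5aR-/- TAM 1 was omitted, and was -0.14 without mt-Atp8, an alternative chosen after seeing the data. Median-of-ratios scaling reversed Cox4i1 (0.025) and mt-Atp8 (0.0015) and moved the nuclear median to -0.07. Of 32 named members, 18 kept their direction under every alternative run, Cox7a1 among them. Leaving out 1 library gave log2 differences on both sides of 0 for mt-Atp8 (-0.20 to 0.23), mt-Nd3 (-0.36 to 0.087), mt-Nd4l (-0.63 to 0.038), mt-Nd5 (-0.31 to 0.17), mt-Nd6 (-0.38 to 0.16), mt-Atp6 (-0.44 to 0.57), mt-Co1 (-0.20 to 0.094), mt-Co2 (-0.039 to 0.34), mt-Co3 (-1.45 to 0.22), Uqcr10 (-0.18 to 0.014), Atp5b (-0.018 to 0.20), Cox6b1 (-0.22 to 0.0038) and Ndufa4 (-0.48 to 0.12). The cause was not tested. TPM keeps no depth, so what depth limits is unknown here.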

Other observations

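Genes next to the OXPHOS set were examined after their values were seen. mt-Rnr1, the 12S ribosomal RNA of the mitochondrion, had 135, 138 and 132 TPM in WT and 258, 244 and 253 in C5aR-/- TAMs, without overlap and with a narrow spread in each group. Its log2 difference was 0.90 (SE 0.11, adjusted p = 0.0666 from limma), short of the 0.05 threshold. mt-Rnr2, the 16S ribosomal RNA transcribed beside it, overlapped between groups, with 187, 168 and 78.8 TPM in WT and 165, 126 and 97.4 in C5aR-/- TAMs. Ribosomal RNAs carry little poly(A), so in libraries made from poly(A) RNA these levels do not give the amount of either rRNA.

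Atpif1, which encodes the inhibitor that keeps ATP synthase from running backward, lies outside the name rule because the annotation lists it under an older symbol. It had 798, 923 and 976 TPM in WT and 646, 654 and 468 in C5aR-/- TAMs, a log2 difference of -0.62 (SE 0.18, adjusted p = 0.225 from limma) without overlap. Usmg5, a small ATP synthase subunit also outside the rule, overlapped, with 634, 768 and 735 against 575, 845 and 891 TPM.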
